A study of Homo sapiens with 4 samples.

Results

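The clustered protocadherins are cell-surface adhesion proteins encoded by neighbouring alpha, beta and gamma gene clusters on human chromosome 5. Members were taken by symbol from the deposited count table: every PCDHA, PCDHB and PCDHG gene, including the A, B and C types, with 5 pseudogene symbols left out. This gave 54 of the 59050 genes in the table, 16 alpha, 16 beta and 22 gamma. The rule uses symbols and no measured value, but it was set with earlier results of these data known. PCDHA14 was kept by this rule, although GENCODE 29, a catalogue of human gene models, lists it as a transcribed pseudogene.

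RNA sequencing was done on HUES8, a human embryonic stem cell line, grown on Matrigel-coated plates in mTeSR1 medium, as 2 libraries labelled WT and 2 labelled CPT2 KO. The targeted gene CPT2 encodes carnitine palmitoyltransferase 2, which acts inside mitochondria in the oxidation of long-chain fatty acids, and the title of the study places it in work on definitive endoderm. How CPT2 was disrupted is not given in the sources used here, nor is the number of knockout clones. The origin of the replicates is not stated, and p-values therefore cover the spread of these 4 libraries only, part of which may be technical.

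Library totals ran from 16887789 to 20460031 counts, so that 1 count was worth 0.0485 to 0.0603 CPM, the unit used for levels, in which library sizes are made equal. The targeted gene went against the labels, with CPT2 at 52 and 72 counts in the WT-labelled pair and at 233 and 170 in the CPT2 KO-labelled pair (edgeR log2 fold change 1.78 with SE 0.27, adjusted p = 0.0218). CPT2 did not pass when either CPT2 KO-labelled library was left out (edgeR adjusted p = 0.25 and 0.0663). Directions are therefore given by label alone. Genes of undifferentiated stem cells were abundant in all 4 libraries, among them POU5F1 with 37218 to 42616 counts, SOX2 with 4229 to 5345 and NANOG with 4644 to 6769. Of 10 such markers 8 had a positive log2 fold change and 1 passed. It was ZFP42, at 85.8 and 101.6 CPM in the WT-labelled pair and 177.7 and 190.9 in the CPT2 KO-labelled pair (edgeR log2 fold change 0.98, adjusted p = 0.0164). ZFP42 did not pass when either CPT2 KO-labelled library was left out. Of all tested genes, 49.7% had a log2 fold change below 0 and 0.359% passed as higher. The pair labelled WT differed from each other by more than counting noise (chi-square per degree of freedom 39.6) and so did the pair labelled CPT2 KO (10.5).

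As background, each alpha or gamma transcript starts at the promoter of its own large variable exon, which encodes the extracellular cadherin repeats, the membrane span and part of the tail. That exon is spliced to 3 small constant exons that all members of the cluster share and that encode the common cytoplasmic end. Beta members lie in single large exons and have no constant part. Neurons switch on different small sets of these promoters by chance, with CTCF and cohesin looping a chosen promoter to a distant enhancer and DNA methylation silencing others, and the resulting combinations let a neuron tell its own branches from those of other cells. The C-type members (PCDHAC1, PCDHAC2, PCDHGC3, PCDHGC4 and PCDHGC5) stand at the ends of the alpha and gamma clusters and are known to be used more uniformly across neurons than the rest.

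The sequences at the splice junction show what separates one member from another in a read. In GENCODE 29 (GRCh38), 15 alpha and all 22 gamma members have a transcript of 4 exons. The first pair of shared exons in it, of 59 and 89 bases, were identical in sequence across the members of a cluster, with 1 distinct version in each. The last 24 bases of the variable exon differed between all 15 alpha and all 22 gamma members. The lines below give the mature transcript 5′ to 3′, with the last 24 bases of the variable exon in lower case and the first 24 of the shared second exon in capitals, for the alpha and gamma members with the most counts and for the gamma C types.
PCDHA10: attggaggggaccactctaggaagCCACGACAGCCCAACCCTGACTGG
PCDHGA10: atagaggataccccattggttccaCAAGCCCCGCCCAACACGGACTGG
PCDHGB7: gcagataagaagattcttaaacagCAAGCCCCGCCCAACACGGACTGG
PCDHGC3: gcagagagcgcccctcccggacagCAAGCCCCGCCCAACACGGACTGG
PCDHGC4: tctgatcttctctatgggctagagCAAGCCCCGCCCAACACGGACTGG
PCDHGC5: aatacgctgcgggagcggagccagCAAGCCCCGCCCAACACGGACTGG

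Only reads that touch the lower-case side can name a single alpha or gamma member. The shared second exon lies at chr5:140978949-140979007 for alpha and at chr5:141494807-141494865 for gamma, both on the plus strand. Between these exons and the members' own ones, PCDHGC3 shared exon bases with the 21 other gamma genes, and 3251 of its exon bases (59.8%) belonged to it alone. The counts bear on how reads in the shared exons were handled. In replicate 1 labelled WT the gamma members together had 1673 counts while PCDHGC3 had 0, and in both WT-labelled libraries the alpha members had 1735 and 1747 counts while PCDHA1 had 0. Reads in the shared exons thus gave neither gene a single count in those libraries. How the counter treated such reads, and reads with several alignments, is not given in the sources used here.

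Among themselves the members covered a wide range of levels, and a few carried a large share of the counts. The 3 members with the most counts held 54.2% of all alpha counts (PCDHA10, PCDHA11 and PCDHAC2), 49.9% of beta (PCDHB15, PCDHB2 and PCDHB5) and 48.6% of gamma (PCDHGA10, PCDHGB7 and PCDHGB6), over the 4 libraries pooled. The beta trio is that of the CPT2 KO-labelled pair. In the WT-labelled pair PCDHB16 (127 and 179 counts) took the place of PCDHB5 (75 and 86). PCDHA10 alone made up 28.99% to 31.02% of the alpha counts in every library. PCDHB15 made up 26.0% to 31.6% of the beta counts, and PCDHGA10 20.3% to 25.7% of the gamma counts. At the other end, PCDHA14 had 0 counts in all libraries and PCDHA1 had 0, 0, 1 and 4, in the order WT replicates 1 and 2, then CPT2 KO replicates 1 and 2. PCDHB6 (7, 1, 5 and 16 counts), PCDHB7 (10, 9, 7 and 4) and PCDHGA12 (8, 6, 4 and 7) were also under the count filter, so 49 of the 54 members could be tested: 14 alpha, 14 beta and 21 gamma.

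**Figure D1:**
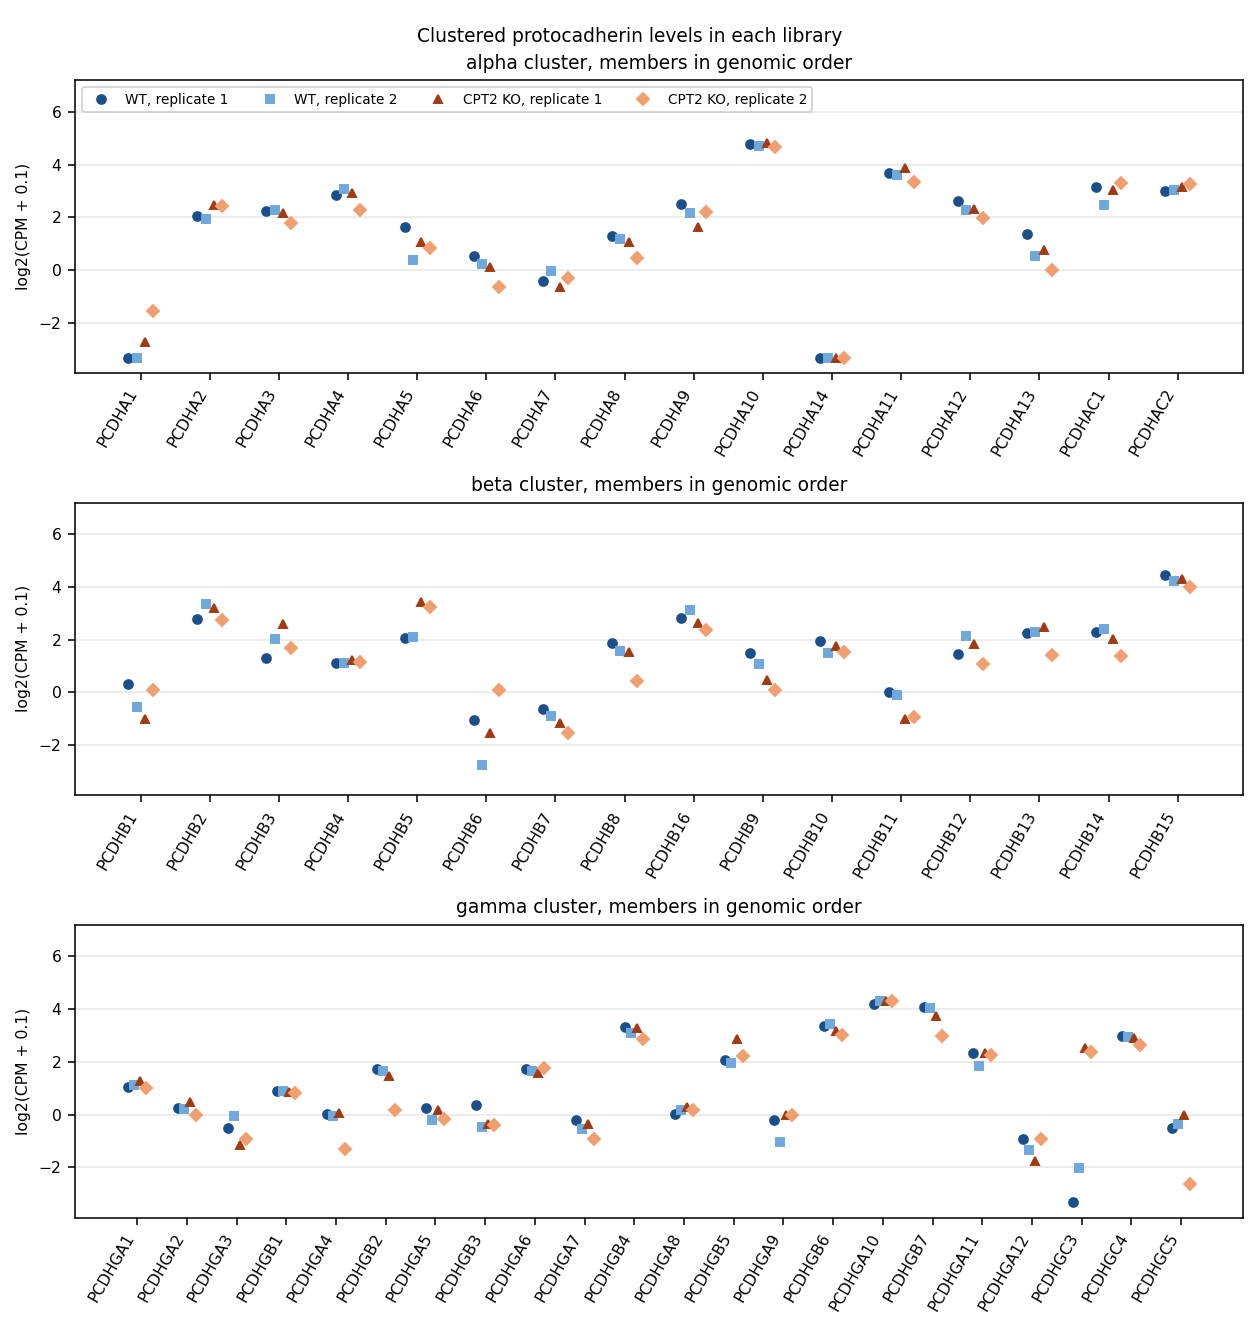
Level of each of the 54 members in each of the 4 libraries, as log2(CPM + 0.1) on the vertical axis, with the alpha, beta and gamma clusters in separate panels and members in genomic order. Dark and light blue mark the WT-labelled pair and dark and light orange the CPT2 KO-labelled pair. The points of most members lie close together, PCDHA14 is at 0 in all libraries, and PCDHGC3 is the member whose blue and orange points stand farthest apart.

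Levels between genes were compared per kilobase of the exon bases that belong to one gene only. On that scale PCDHB15 was highest, at 6.07 and 5.13 CPM per kb in the WT-labelled pair and 5.44 and 4.35 in the CPT2 KO-labelled pair. PCDHGB7 followed with a mean of 4.87 CPM per kb over the 4 libraries, then PCDHGA10 (4.34), PCDHA11 (3.70) and PCDHGB4 (3.56). The ranges of PCDHB15 (4.35 to 6.07) and PCDHGB7 (2.79 to 6.03) overlapped, so their order was not separated by the spread. PCDHA10, first in alpha by counts, stood at 2.79 CPM per kb, below PCDHA11, with 9555 exon bases of its own against 3360. In PCDHGB4, 56.4% of the 75-base stretches of the variable part also occurred in another member, most often PCDHGA8, so the assignment of its reads is uncertain. That share was 5.83% in PCDHGB7, 2.39% in PCDHGA10, 7.61% in PCDHB15 and 1.53% in PCDHA11.

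Summed over a cluster, the level in the CPT2 KO-labelled pair lay on either side of at least 1 WT-labelled library in every cluster. The alpha members summed to 94.0 and 84.8 CPM in the WT-labelled pair and to 91.7 and 81.6 in the CPT2 KO-labelled pair. The beta members summed to 69.2 and 71.2 against 75.5 and 56.6 CPM, and the gamma members to 90.7 and 87.6 against 94.4 and 77.1. In each cluster replicate 2 labelled CPT2 KO had the lowest sum, and the ranges of the groups overlapped. The log2 ratios of the group means were −0.045 for alpha, −0.088 for beta and −0.056 for gamma. The group means differed by less than the 2 libraries labelled CPT2 KO differed from each other in all 3 clusters, and by less than the WT-labelled pair did in alpha but not in beta or gamma. With 2 libraries against 2, an exact permutation test cannot go below p = 0.333, and no test was made of these sums. In bulk RNA, fewer cells with a transcript and less of it in each cell cannot be told apart.

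**Figure D2:**
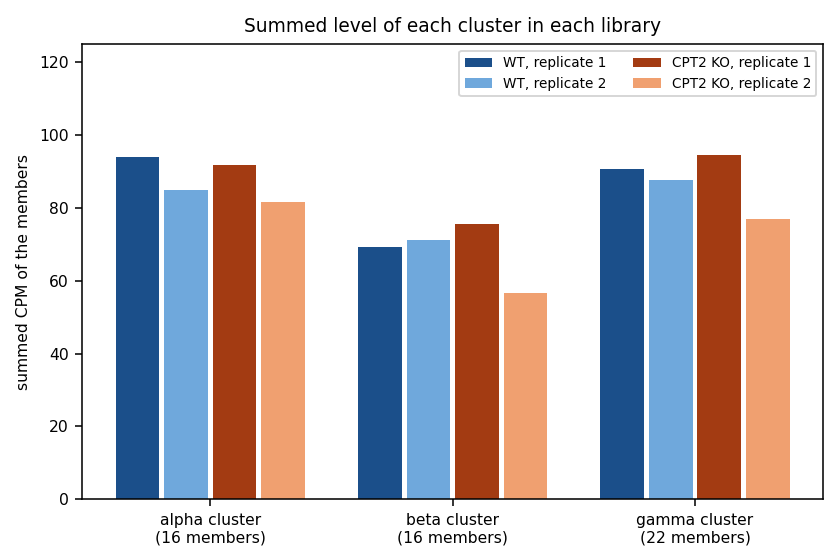
Summed CPM of all members of the alpha, beta and gamma clusters (vertical axis) in each library, 1 bar a library, blue for WT-labelled libraries and orange for the CPT2 KO-labelled pair. In each cluster the lowest bar is replicate 2 labelled CPT2 KO (81.6, 56.6 and 77.1 CPM) and in beta and gamma the highest is replicate 1 of the same label (75.5 and 94.4 CPM).

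Replicate 2 labelled CPT2 KO held the lowest CPM of the 4 libraries in 27 of the 49 tested members (55.1%), and in 28.5% of all tested genes. Relative to each gene's mean over the 4 libraries on the log2(CPM + 0.5) scale, the members' median was −0.26 in that library, 0.16 in replicate 1 labelled WT, 0.0075 in replicate 2 labelled WT and 0.080 in replicate 1 labelled CPT2 KO. The corresponding medians over all tested genes lay between −0.0023 and 0.0065. Replicate 2 labelled CPT2 KO was also the library with the fewest counts, 16887789, and what part this has in the lower values was not tested.

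Of the 49 tested members, 1 was called higher in the CPT2 KO-labelled pair and 0 lower, where called means an edgeR adjusted p below 0.05 over all 17564 tested genes. Over all tested genes 0.416% were called (0.359% higher and 0.0569% lower). At an unadjusted p below 0.05 there were 4 members, PCDHGC3, PCDHB5, PCDHB9 and PCDHGB7, and 9.04% of all tested genes. DESeq2 called 2 members higher and 0 lower (0.744% and 0.243% of all genes it tested), and limma-voom 1 higher and 0 lower (0.313% and 0.0399%). The member called by edgeR was PCDHGC3, and the second member called by DESeq2 was PCDHB5.

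**Figure D3:**
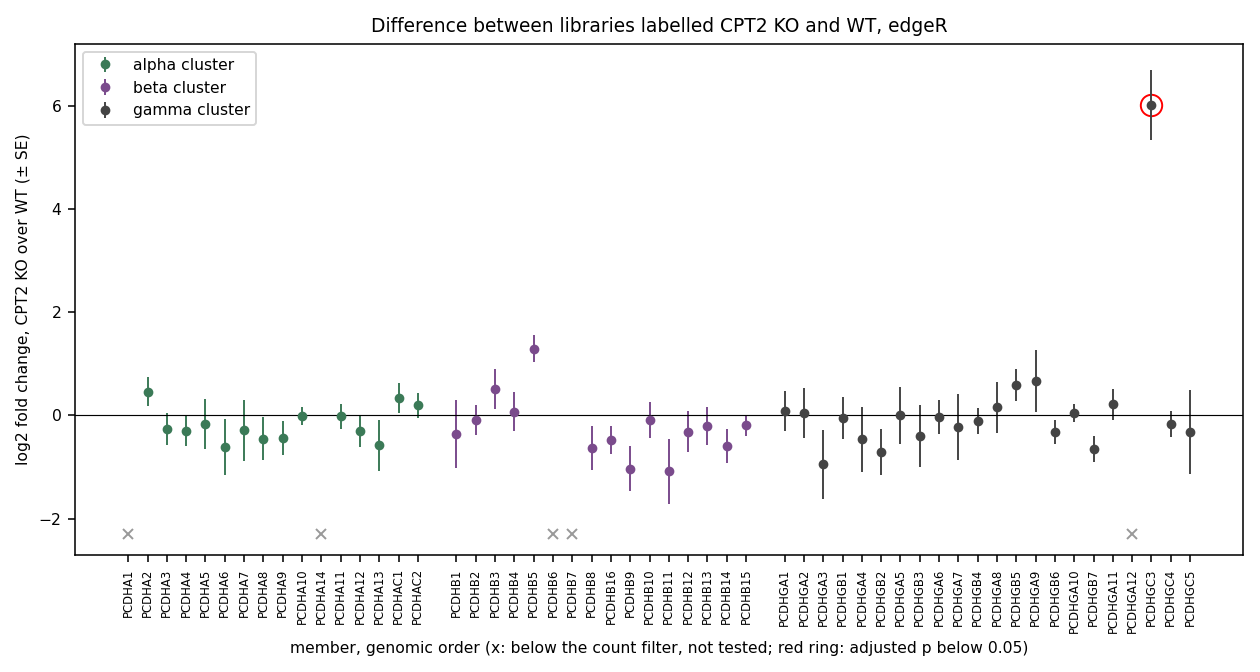
Log2 fold change of each tested member, CPT2 KO-labelled libraries over those labelled WT (vertical axis, edgeR, error bars are SE), in genomic order along the horizontal axis. Grey crosses mark the 5 members under the count filter and the red ring marks the member called. PCDHGC3 stands at 6.02 and the other tested members lie between −1.08 and 1.29.

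PCDHGC3, a gamma C-type member, went from near absence to a level below that of its neighbour PCDHGC4. It had 0 and 3 counts in the WT-labelled pair and 114 and 85 in the CPT2 KO-labelled pair, or 0 and 0.146 against 5.64 and 5.12 CPM. Per kb of own exon bases, PCDHGC3 stood at 1.736 and 1.575 CPM in the CPT2 KO-labelled pair and PCDHGC4 at 2.676 and 2.201. Both CPT2 KO-labelled libraries were high and close together, and both labelled WT were at or near 0, with no overlap. The mean rose from 0.0728 ± 0.103 to 5.38 ± 0.368 CPM (SD, n = 2 each; edgeR log2 fold change 6.02 with SE 0.68, adjusted p = 0.00175). The ratio of the pooled counts, scaled for depth, was 70.4, with an exact binomial interval from 23.7 to 344 at 95% confidence that covers counting error only. It ranked 10th by log2 fold change among the 63 genes called higher. PCDHGC3 was called under all 12 alternatives, with an adjusted p of at most 0.0138 (edgeR, without replicate 1 labelled CPT2 KO) and log2 fold changes from 5.15 (without replicate 1 labelled WT) to 9.64 (without replicate 2 labelled WT, which leaves a group at 0, so that this value is no bound).

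The share of gamma counts that came from PCDHGC3 differed between the groups in the same way. It was 0% of 1673 gamma counts in replicate 1 labelled WT, which allows a share of up to 0.179%, and 0.166% of 1804 in replicate 2 (exact interval 0.0343% to 0.485%). In the CPT2 KO-labelled pair it was 5.98% of 1908 counts (4.95% to 7.13%) and 6.65% of 1279 (5.34% to 8.15%). The intervals of the groups are far apart, and those of the replicates overlap. The gene lies at chr5:141475947-141512979 (GRCh38, plus strand, protein coding, ENSG00000240184.6). None of the 75-base stretches of its variable part occurred in another member, and GENCODE 29 lists no gene outside the cluster overlapping its exons.

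PCDHGC4 and PCDHGC5, the next promoters along the chromosome, are the gamma C types nearest to it. PCDHGC4 had 143 and 158 counts in the WT-labelled pair and 151 and 102 in the CPT2 KO-labelled pair, or 7.75 and 7.67 against 7.47 and 6.15 CPM. The CPT2 KO-labelled libraries lay just below those labelled WT, and the difference did not pass (edgeR log2 fold change −0.17 with SE 0.25, adjusted p = 0.86). Its share of gamma counts stayed between 7.91% and 8.76% in the 4 libraries. PCDHGC5 had 11, 14, 18 and 1 counts in the same order of libraries, with both the highest and the lowest value among the CPT2 KO-labelled pair (edgeR log2 fold change −0.32 with SE 0.82, adjusted p = 0.932). Together the 3 gamma C types summed to 8.35 and 8.49 CPM against 14.0 and 11.3 CPM.

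The alpha C types did not pass either. PCDHAC1 stood at 8.84 and 5.44 CPM in the WT-labelled pair and at 8.02 and 9.88 in the CPT2 KO-labelled pair (edgeR log2 fold change 0.33 with SE 0.29, adjusted p = 0.748). The groups overlapped, since replicate 1 labelled WT was above replicate 1 labelled CPT2 KO. PCDHAC2 stood at 7.81 and 8.15 against 8.81 and 9.46 CPM, without overlap but with little between the groups (edgeR log2 fold change 0.19 with SE 0.23, adjusted p = 0.824). Of the 5 C types, then, 1 was called, against 0.416% of all tested genes. The other 4 had log2 fold changes between −0.32 and 0.33.

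**Figure D4:**
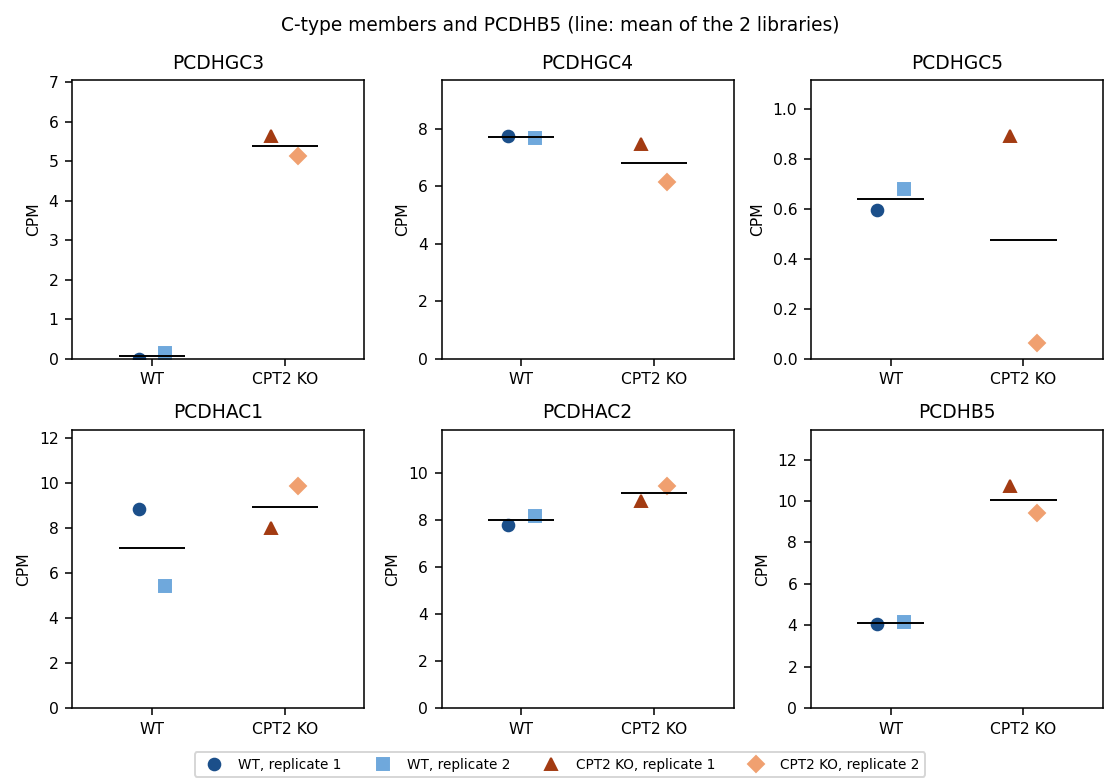
CPM of the 5 C-type members and of PCDHB5 (vertical axis, 1 panel a gene) in the libraries of each label (horizontal axis), 1 point a library, with a line at the mean of the 2 libraries of a group. PCDHGC3 stands at 0 and 0.146 against 5.64 and 5.12 CPM and PCDHB5 at 4.07 and 4.17 against 10.7 and 9.40, while the other 4 panels show groups that overlap or lie close together.

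The promoters of PCDHGC4, a C type that was not called, and of PCDHB5, described further on, are shown to compare a C type with a beta member. They come from RefSeq (GRCh38.p14, plus strand, 5′ to 3′) and give the 250 bases before the annotated start. Capitals mark CGCT, the core of a longer sequence element shared by many clustered protocadherin promoters, and its reverse complement AGCG. Only these letters were searched for, so a match in PCDHGC4 or any other promoter does not show that the longer element is present. The positions are chr5:141484780-141485029 for PCDHGC4 and chr5:141134956-141135205 for PCDHB5.
PCDHGC4: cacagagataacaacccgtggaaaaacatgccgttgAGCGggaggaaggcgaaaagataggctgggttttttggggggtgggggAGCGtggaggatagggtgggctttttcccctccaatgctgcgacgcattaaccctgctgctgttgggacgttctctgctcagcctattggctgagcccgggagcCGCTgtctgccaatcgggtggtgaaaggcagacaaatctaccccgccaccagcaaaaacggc
PCDHB5: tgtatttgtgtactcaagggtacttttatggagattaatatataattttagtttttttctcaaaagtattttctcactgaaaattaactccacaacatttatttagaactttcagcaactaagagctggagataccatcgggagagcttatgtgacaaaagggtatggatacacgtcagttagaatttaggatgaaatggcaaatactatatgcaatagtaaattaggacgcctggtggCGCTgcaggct

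PCDHGC4 held CGCT at 1 place on the gene's strand and AGCG at 2, with no shared bases, and PCDHB5 held CGCT at 1 place. The match nearest the start, counted from that start, began at −62 in PCDHGC4 and −11 in PCDHB5. A promoter window of 300 bases, from 250 before to 50 after the start, was found in RefSeq for 47 of the 54 members, and the 5′-most was used where a gene had 2. CGCT on the gene's strand occurred in 46 of the 47 windows (97.9%) against 54.3% of the 35116 promoters in the table. Either strand gave 97.9% against 70%, and the 100 bases before the start gave 93.6% against 28.7%. The window that lacked CGCT belongs to PCDHA9, whose level, at 3.02 to 5.64 CPM, was within the range of other alpha members. These shares count the bare letters, and how many members carry the longer element was not tested.

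The bases around CGCT varied between members, within clusters as well as between them. They are shown for the match nearest the start, with 16 bases on either side, for some of the members with high counts or named differences. CGCT is in capitals.
PCDHA2: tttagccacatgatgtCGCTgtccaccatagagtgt
PCDHA6: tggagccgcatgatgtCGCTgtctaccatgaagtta
PCDHA10: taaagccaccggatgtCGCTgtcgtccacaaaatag
PCDHA12: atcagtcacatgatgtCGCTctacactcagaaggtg
PCDHB5: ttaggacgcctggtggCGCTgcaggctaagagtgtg
PCDHB9: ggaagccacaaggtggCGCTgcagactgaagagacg
PCDHB15: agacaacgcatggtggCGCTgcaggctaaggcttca
PCDHB16: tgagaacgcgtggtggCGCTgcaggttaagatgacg
PCDHGA3: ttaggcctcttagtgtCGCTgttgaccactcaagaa
PCDHGA10: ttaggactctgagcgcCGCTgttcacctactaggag
PCDHGB6: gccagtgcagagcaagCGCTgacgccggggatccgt
PCDHGB7: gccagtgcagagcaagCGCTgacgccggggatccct

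The beta windows share GTGGCGCT, which holds the core, in 13 of 14 beta promoters and in 0 alpha or gamma promoters. It occurred in 0.638% of all promoters on the gene's strand and 1.15% on either strand, and this 8-base word was chosen after the sequences were seen. PCDHB5, PCDHB9, PCDHB15 and PCDHB16 all carry it, and among them the log2 fold change ran from −1.03 to 1.29. PCDHGB6 and PCDHGB7 carry nearly the same stretch, and their log2 fold changes were −0.33 and −0.65, with neither called. A match of letters is a description and not a binding site.

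CG dinucleotides, where DNA methylation occurs, were more numerous in C-type promoters than in most others. The 4 C-type promoters in the table held 15 to 27 CG in 300 bases (PCDHAC2 15, PCDHGC3 18, PCDHGC4 23 and PCDHAC1 27), a median of 20.5. The 43 other members had a median of 7 and a range of 2 to 16, and all promoters in the table a median of 14. PCDHGB6, with 16, was the only other member above PCDHAC2. PCDHB5 had 6. No methylation was measured here, and the counts of CG describe the reference sequence alone.

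**Figure D5:**
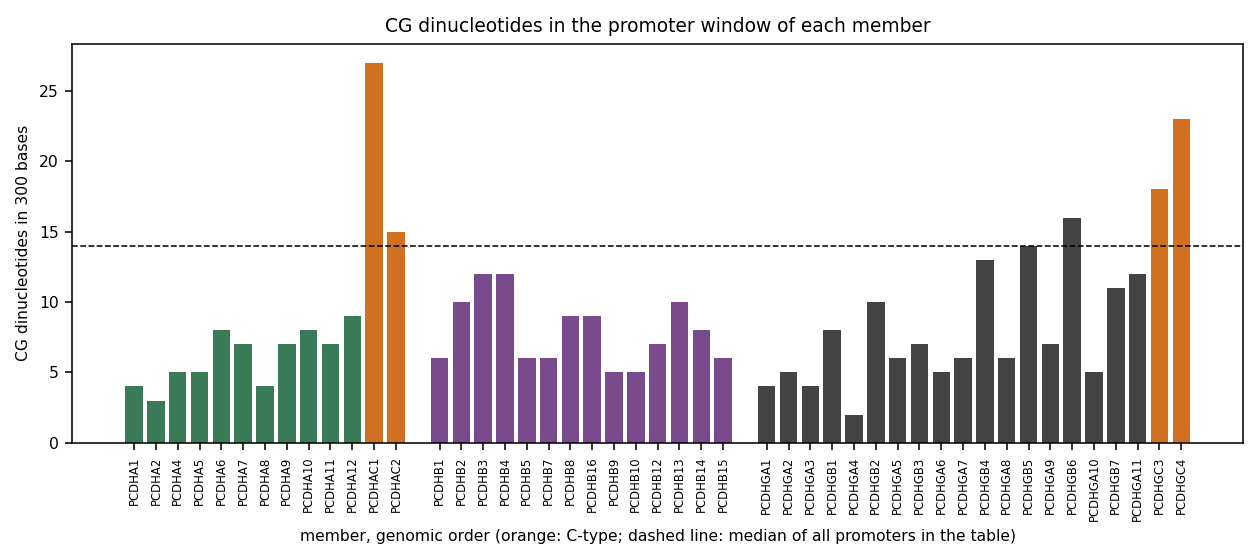
Number of CG dinucleotides in the 300-base promoter window (vertical axis) of the 47 members found in RefSeq, in genomic order, with green, purple and grey bars for alpha, beta and gamma members and orange bars for C types. The dashed line is the median of all promoters in the table, 14, and the 4 C-type bars reach 15 to 27.

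Among the other gamma members, none of the tested A and B types was called, where edgeR called 0.416% of all tested genes. The 11 tested A types had a median log2 fold change of 0.046, 6 positive and 5 negative, and 0 called. PCDHGA10, with the most counts in the cluster, stood at 18.4 and 19.6 CPM in the WT-labelled pair and at 19.6 and 19.8 in the CPT2 KO-labelled pair. All 4 libraries lay within a narrow band (edgeR log2 fold change 0.049 with SE 0.18, adjusted p = 0.953). PCDHGA3, with the largest difference of the A types, had few counts, at 0.596 and 0.874 against 0.347 and 0.422 CPM (edgeR log2 fold change −0.95 with SE 0.67, adjusted p = 0.694). The other 9 tested A types had log2 fold changes between −0.46 and 0.66.

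The 7 gamma B types had a median of −0.33, with 6 negative and 1 positive, and 0 were called. Of all tested genes 49.7% were negative and 0.416% were called. PCDHGB7 had 310 and 339 counts in the WT-labelled pair and 268 and 129 in the CPT2 KO-labelled pair, or 16.8 and 16.5 against 13.3 and 7.77 CPM. Both CPT2 KO-labelled libraries were below both labelled WT, replicate 2 by far the most (edgeR log2 fold change −0.65 with SE 0.26, adjusted p = 0.491). Without that library the log2 fold change of PCDHGB7 was −0.32, and without replicate 1 labelled CPT2 KO it was −1.10. PCDHGB2 showed the same shape, at 3.20 and 3.06 against 2.67 and 1.02 CPM (edgeR log2 fold change −0.71 with SE 0.44, adjusted p = 0.647).

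PCDHGB4 and PCDHGB6, with PCDHGB7 the most abundant B types, stood at 9.81, 8.40, 9.65 and 7.17 CPM and at 10.3, 10.9, 8.91 and 7.95 CPM in the same order of libraries. The groups overlapped for PCDHGB4 (log2 fold change −0.10, SE 0.25) and did not for PCDHGB6 (−0.33, SE 0.23), and neither passed (edgeR adjusted p = 0.927 and 0.691). PCDHGB5 was the B type with a positive difference, at 4.12 and 3.79 against 7.18 and 4.58 CPM (edgeR log2 fold change 0.59 with SE 0.32, adjusted p = 0.613).

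In the beta cluster PCDHB5 showed the largest difference and fell short of the threshold. It had 75 and 86 counts in the WT-labelled pair and 217 and 156 in the CPT2 KO-labelled pair, or 4.07 and 4.17 against 10.7 and 9.40 CPM. Replicates lay close together and the groups were well apart, with means of 4.12 ± 0.0772 and 10.1 ± 0.948 CPM (SD, n = 2 each; edgeR log2 fold change 1.29 with SE 0.26, adjusted p = 0.0835). Its share of beta counts was 5.87% and 5.86% in the WT-labelled pair (exact intervals 4.65% to 7.31% and 4.72% to 7.19%) and 14.2% and 16.6% in the CPT2 KO-labelled pair (12.5% to 16.1% and 14.3% to 19.2%). It was called higher under 4 of 12 alternatives: DESeq2 (adjusted p = 0.0276), no count filter (edgeR adjusted p = 0.0374), replicate number as a block (0.0186) and without replicate 2 labelled WT (0.0148). Of all genes tested, 0.744% were called higher with DESeq2, 0.323% with no filter, 1.33% with the block and 2.66% without that library.

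Over all alternatives its log2 fold change stayed between 1.19 and 1.38, and its adjusted p reached 0.537 without replicate 1 labelled CPT2 KO. PCDHB5 lies at chr5:141135218-141138625 (plus strand). Of its 3408 exon bases, 501 overlap the antisense transcript AC244517.11, and without known strand reads of the pair cannot be told apart. In addition, 6.81% of its 75-base stretches occur elsewhere in the clusters, most often in the pseudogene PCDHB17P, which had only 5 to 9 counts in a library.

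Most other beta members had negative differences, and none of them passed. PCDHB9 had 50 and 41 counts against 26 and 16 (2.71 and 1.99 against 1.29 and 0.964 CPM; edgeR log2 fold change −1.03 with SE 0.44, adjusted p = 0.525). PCDHB11 had 17 and 17 against 8 and 7 (edgeR log2 fold change −1.08 with SE 0.63, adjusted p = 0.633). In both genes every library labelled CPT2 KO was below every library labelled WT. PCDHB16 stood at 6.88 and 8.69 against 6.14 and 5.00 CPM, also without overlap (edgeR log2 fold change −0.48 with SE 0.27, adjusted p = 0.625).

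PCDHB15, the most abundant beta member, stood at 21.9 and 18.5 against 19.6 and 15.7 CPM, with overlap (edgeR log2 fold change −0.19 with SE 0.20, adjusted p = 0.794). PCDHB2 stood at 6.72 and 10.1 against 9.16 and 6.57 CPM (log2 fold change −0.089, SE 0.29). PCDHB3 stood at 2.39 and 3.98 against 5.89 and 3.13 CPM (0.51, SE 0.40). For these 2 the spread within a group was wider than the difference between the groups, and neither passed (edgeR adjusted p = 0.946 and 0.711). The other 7 tested beta members had log2 fold changes between −0.63 and 0.067, and the steadiest was PCDHB4, whose libraries all lay between 2.06 and 2.23 CPM.

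No alpha member was called, and none had an unadjusted p below 0.05 in edgeR, DESeq2 or limma-voom. Of all tested genes edgeR called 0.416%, and 9.04% had an unadjusted edgeR p below 0.05. PCDHA10, with the most counts in the cluster, stood at 27.3 and 26.3 CPM in the WT-labelled pair and at 27.9 and 25.1 in the CPT2 KO-labelled pair. The 4 values overlapped closely (edgeR log2 fold change −0.014 with SE 0.17, adjusted p = 0.987). PCDHA11 had 237 and 252 counts against 295 and 166, with the CPT2 KO-labelled pair on either side (edgeR log2 fold change −0.019 with SE 0.24, adjusted p = 0.988). PCDHA12 stood at 6.07 and 4.76 against 4.85 and 3.80 CPM (edgeR log2 fold change −0.31 with SE 0.30, adjusted p = 0.775).

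The largest negative alpha differences were in members with few counts. PCDHA6 had 25 and 22 counts in the WT-labelled pair and 20 and 9 in the CPT2 KO-labelled pair, without overlap (edgeR log2 fold change −0.61 with SE 0.54, adjusted p = 0.747). PCDHA13 stood at 2.49 and 1.36 against 1.58 and 0.904 CPM, with overlap (edgeR log2 fold change −0.58 with SE 0.49, adjusted p = 0.741). PCDHA2 went the other way, at 4.07 and 3.79 against 5.49 and 5.30 CPM, with both CPT2 KO-labelled libraries above both labelled WT (edgeR log2 fold change 0.46 with SE 0.29, adjusted p = 0.65). The other 6 tested alpha members had log2 fold changes between −0.45 and −0.16, with edgeR adjusted p of at least 0.71.

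Across the members, small negative differences outnumbered positive ones, and this was largely lost when either of 2 libraries was left out. Of the 49 tested members 35 (71.4%) had a log2 fold change below 0 against 49.7% of all tested genes, with a median of −0.19 against 0.0017. The medians were −0.28 for alpha (11 of 14 negative), −0.26 for beta (11 of 14) and −0.046 for gamma (13 of 21). Both CPT2 KO-labelled libraries lay below both labelled WT in 14 members (28.6%) and above in 8 (16.3%), where 19.8% and 21.1% of all tested genes did so. Without replicate 2 labelled CPT2 KO, 25 members were negative and 25 positive of 50 tested, and the median was −0.0035. Without replicate 1 labelled WT, 26 were negative and 24 positive, and the median was −0.031. The negative differences still prevailed without replicate 2 labelled WT (35 of 51, median −0.21) and without replicate 1 labelled CPT2 KO (37 of 51, median −0.33). Over all tested genes 47.6% to 51.3% were negative with a library left out.

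The mix of members within each cluster was compared between libraries by chi-square on the counts, where 1 per degree of freedom is counting noise alone. For gamma the value was 0.823 between the WT-labelled replicates and 2.52 between the CPT2 KO-labelled pair, against 6.64 to 9.52 between libraries of different groups. With PCDHGC3 left out the pairs across groups gave 1.80 to 4.38. For beta the replicate pairs gave 3.41 and 2.95 and the pairs across groups 6.34 to 8.80. No beta value was computed without PCDHB5, the beta member with the largest difference, so its part in these was not tested. For alpha the replicate pairs gave 2.96 and 3.18 against 2.22 to 5.24 across groups, which overlap. These are descriptions of 4 libraries, without a test between groups.

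Genes tied to the clusters by function, family or position alone were counted. They came from lists of chromatin regulators, partners of the proteins, other protocadherins and related cadherins, and neighbouring genes. Of 76 tested genes edgeR called 0 higher and 0 lower, against 0.416% called of all tested genes. At an unadjusted edgeR p below 0.05 there were 10, against 9.04% of all tested genes. DESeq2 called 1 higher (FAT4) and limma-voom 0, where 0.744% and 0.313% of all genes they tested were called higher. FAT4, an atypical cadherin named here after its values were seen, had 97 and 124 counts in the WT-labelled pair and 302 and 186 in the CPT2 KO-labelled pair (edgeR log2 fold change 1.22, adjusted p = 0.0999).

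The chromatin regulators include the proteins that loop or silence these promoters, and the 25 tested had a median log2 fold change of −0.095. CTCF, the insulator protein that binds protocadherin promoters, had 2486 and 2491 counts in the WT-labelled pair and 2322 and 1979 in the CPT2 KO-labelled pair (edgeR log2 fold change −0.13, adjusted p = 0.796). Scaled for depth, both CPT2 KO-labelled libraries were slightly below both labelled WT. RAD21, a cohesin subunit, SMCHD1, a silencer of the clusters, and DNMT3B, a DNA methyltransferase, did not pass (edgeR log2 fold changes −0.020, −0.16 and 0.25, with adjusted p = 0.974, 0.769 and 0.694). SETDB1, a histone methyltransferase that acts on the clusters, had 1254 and 1146 against 939 and 666 counts, without overlap (edgeR log2 fold change −0.51, adjusted p = 0.365). Without replicate 2 labelled WT its log2 fold change was −0.65.

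The 15 partners and processing enzymes, such as the sheddase ADAM10 and the kinases PTK2 and PTK2B, had a median of −0.039. The 18 tested protocadherins and related cadherins outside the clusters had a median of −0.15, close to the −0.19 of the clustered members. Among them PCDH1 had 4365 and 3458 counts in the WT-labelled pair and 2582 and 2216 in the CPT2 KO-labelled pair (edgeR log2 fold change −0.63, adjusted p = 0.227). It was called lower with the replicate block (edgeR adjusted p = 0.0431), which called 0.797% of all tested genes lower. Without replicate 2 labelled WT its log2 fold change was −0.86.

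Of the 19 tested genes that neighbour the clusters edgeR called 0, and 1 had an unadjusted p below 0.05. Over all tested genes these shares were 0.416% and 9.04%. They had a median log2 fold change of 0.023. SLC25A2 and TAF7 lie between the beta and gamma clusters: SLC25A2 had 0, 0, 0 and 1 counts, and TAF7, a subunit of the general transcription factor TFIID, had 2779 and 3169 against 3409 and 2364 (edgeR log2 fold change 0.032, adjusted p = 0.963). DIAPH1, just past the gamma cluster, had 3208 and 4053 against 3999 and 3393 (0.12, edgeR adjusted p = 0.809).

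Markers of other cell types were set beside the called member. All 8 genes of a mesendoderm and endoderm list were higher in both CPT2 KO-labelled libraries than in both labelled WT. Of all tested genes 21.1% did so. The list summed to 3.47 and 3.54 CPM against 256 and 44.1 CPM. EdgeR called 0 of the 6 that could be tested (0.416% of all tested genes), with 5 at an unadjusted p below 0.05 (9.04%). SOX17 and GATA6 were at 0 in the WT-labelled pair. DESeq2 called 6 of the 8 higher, limma-voom 0, and edgeR with the replicate block 5 of 6. Of all genes tested, these fits called 0.744%, 0.313% and 1.33% higher. PCDHGC3 stood at 5.64 and 5.12 CPM in the same CPT2 KO-labelled libraries, where the marker sum differed several-fold, and the part of such cells in the level of PCDHGC3 was not tested. The 6 neural progenitor markers did not move together. NES made up nearly all of their sum, at 277 and 295 against 398 and 337 CPM, and was not called (edgeR adjusted p = 0.465). SOX1, a transcription factor of early neural cells, went the other way and was called lower, with 82 and 130 counts in the WT-labelled pair and 15 and 5 in the CPT2 KO-labelled pair (edgeR log2 fold change −3.30 with SE 0.48, adjusted p = 0.0164). SOX1 did not pass without either CPT2 KO-labelled library (edgeR adjusted p = 0.0734 and 0.0743). PAX6 was not called, and HES5, LHX2 and OTX1 were at or near 0 in all libraries. Fibroblast markers summed to 481 and 506 against 452 and 438 CPM, most of it from THY1 and COL1A2, with 0 called and COL3A1, DCN, LUM and TWIST1 at or near 0. Neuron markers summed to 380 and 264 against 263 and 294 CPM, most of it from NEFL and SYT1, and 0 of 10 were called, with 2 at an unadjusted p below 0.05 (STMN2 and SYT1). The part of these in the protocadherin values was not tested either.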

How the data were processed

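RNA-seq counts were analysed for 2 libraries labelled WT and 2 labelled CPT2 KO. Per the file headers, the deposited values are unnormalised read counts for each gene symbol, with a gene length. The tools were HISAT2 2.1.0, an aligner, and featureCounts 1.6.4, a read counter, on hg38 (GRCh38), per the submitters' processing notes. Strand, the annotation release and how multiply aligned reads were counted: not given in the sources used here.

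CPM and tests were computed from the deposited counts with edgeR 4.0.16 in R 4.3.3 (TMM scaling, filterByExpr by group, robust quasi-likelihood F-test with legacy = FALSE, group as the only term, Benjamini-Hochberg adjustment over 17564 genes at 0.05). SE was obtained as the absolute log2 fold change over the square root of the F statistic. Fold changes are CPT2 KO over WT, by label. Alternatives were DESeq2 size factors, library size only, no filter, a stricter filter (10 counts in 2 libraries and 50 in total), DESeq2 1.42.0, limma-voom (limma 3.58.1), a replicate block, leaving out single libraries and, added after seeing the data, the legacy quasi-likelihood estimate. Intervals on shares are exact Clopper-Pearson intervals at 95%, and the limit for a count of 0 is 3 counts. On simulated libraries (3 runs, median 17141 genes) the fit recovered 49.7% of genes changed 2-fold and 85.0% of those changed 4-fold, with 3.58% false calls.

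Positions, exons and junctions come from GENCODE 29, matched by symbol. The deposited length equalled the GENCODE 29 exon length for 77.8% of 56159 symbols with a single match there and for 36 of 54 members, and the release counted may differ. Promoters come from RefSeq (GRCh38.p14), and the promoter sequence of PCDHGC3 is not reported here.

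Members, lists and tests were chosen with earlier results of these data known. Genes were named by rule: the 5 C types, members called in any fit, the 5 highest of each cluster per kb, the 3 with the largest log2 fold change of each cluster, 9 fixed genes around the clusters and CPT2. PCDHGB5, PCDHB4, PCDHA9, FAT4, single cell type markers and members with few counts or shared sequence are named beyond it, after their values were seen.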

Additional observations from a re-analysis of the deposited data

How the results depend on the processing

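PCDHGC3 was called higher in all 12 alternatives. The number of members called higher was 2, not 1, with no filter, DESeq2, the replicate block and without replicate 2 labelled WT, where PCDHB5 was added, and 0 members were called lower in any. Over the libraries left out in turn it ranged from 1 to 2. Under each scaling the log2 ratio of the summed CPM of each cluster moved by less than the replicate spread. With a library left out it ran from −0.13 to 0.037 for alpha, −0.31 to 0.11 for beta and −0.21 to 0.084 for gamma. Leaving out 1 of 2 libraries always shifts a mean by less than the SD of the pair. A comparison of that shift with the spread therefore cannot show stability.

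Counts over all genes moved far more. From 63 higher and 10 lower they came to 101 and 23 with no filter, 138 and 45 with DESeq2, and 233 and 140 with the replicate block. With 1 library left out they ranged from 23 (without replicate 1 labelled CPT2 KO) to 490 (without replicate 2 labelled WT) higher and from 1 (without either library labelled CPT2 KO) to 643 (without replicate 2 labelled WT) lower, and the lone library of a group is then assumed to vary like the others. Over the lists of regulators, partners, other protocadherins and neighbours, 1 gene was called higher with no filter, DESeq2 and the block, 2 lower with the block, and 0 to 2 higher and 0 to 5 lower with a library left out. The cause was not tested. Same-numbered libraries deviated together with a correlation of 0.25, over 2 pairs that the labels tie to no shared batch, so the block is given only as an alternative. It changed the call of PCDHB5 among the members. With 2 libraries a group, members with few counts, such as PCDHGC5 and PCDHGA3, can be tested for large differences only, and PCDHGC5, PCDHGA3, PCDHGA7 and PCDHB11 could not be tested under the stricter filter.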
